A study of Sus scrofa with 6 samples.

Results

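Solute carriers are membrane proteins that move nutrients, ions, metals and metabolites across the plasma membrane and the membranes of mitochondria, lysosomes and other organelles. Here they were taken as every gene on a pig expression array whose only annotated symbol begins with SLC and a number, which gave 120 genes in 37 numbered families, of 6765 genes with a single symbol. They had 176 probe sets, the groups of short probes that report a transcript, and each gene was represented by its probe set with the highest mean log2 signal over the 6 arrays. By family number they fell into 21 amino acid, neurotransmitter and peptide transporters, 21 mitochondrial carriers, 18 carriers of other organic solutes, 17 sugar transporters, 13 metal transporters, 13 nucleoside and nucleotide sugar transporters, 12 carriers of inorganic ions, 2 monocarboxylate or dicarboxylate carriers, and 3 genes that carry an SLC symbol but encode regulators of a transporter.

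The study made pig embryos by nuclear transfer (NT), the transfer of a somatic nucleus into an oocyte, and is titled for the effect of DJ-1, a protein encoded by PARK7, on their early development. The 5 embryo arrays came from NT embryos at the 2-cell stage, 28 h after transfer: 2 after injection of anti-DJ1 antibody, 2 after injection of IgG as control, and 1 without injection. Each was a pool of 23 to 26 embryos grown in the medium PZM-3 from slaughterhouse oocytes. The 1 donor cell array came from the cells that gave the nuclei, cultured fibroblasts of an adult Meishan pig grown in DMEM with serum, so cell type and culture medium cannot be told apart in the comparison with donor cells. The trial of each array was taken from the replicate number in its title. On this reading trial 1 held an array of each kind and trial 2 an anti-DJ1 and an IgG array.

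Carriers of amino acids and sugars set what a cell takes from its medium, while mitochondrial carriers of family 25 exchange ADP for ATP, import phosphate and pass citrate, aspartate and acylcarnitines across the inner membrane. Families 30 and 39 move zinc, family 31 copper, and family 35 brings nucleotide sugars and sulphate donors into the endoplasmic reticulum and Golgi. A pig embryo at this stage is known to hold many transcripts made in the oocyte.

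The arrays were first checked for background, labels and RNA. Between 85 and 97 of the 120 genes had a signal above the highest of the 17 Tag control probe sets of their array (21.4 to 47.03), which stand here for background. On all 6 arrays 65 genes were above it and 10 within it. All 10 measured oocyte markers were higher in embryos than in donor cells, with a summed signal of 84652 to 136240 in embryos and 225 in donor cells, where 7 of the 10 were within the Tag controls. The labelled fibroblasts carried VIM, FN1 and THY1 at 31965, 24455 and 6443, but 4 of 12 measured fibroblast markers, DCN, LUM, POSTN and FAP, were within the Tag controls there, and the epithelial gene EPCAM stood at 3128 there and at 3734 to 5575 in embryos. Of 9 fibroblast markers tested, 6 were lower in embryos under the 3 scalings of the arrays described below, and PDGFRB and DCN were higher. Of 5 epithelial, endothelial and blood cell markers tested, EPCAM (0.77 ± 0.13, log2 difference, embryos minus donor cells), CDH1 (2.19 ± 0.14), PECAM1 (1.27 ± 0.28) and HBB (0.94 ± 0.15) were higher in embryos and none was lower. Of 12 cumulus and granulosa cell markers measured, 6 were within the Tag controls on all embryo arrays, and the list had a summed signal of 1676 to 2205 in embryos and 1017 in donor cells. Of the 5 tested, FST (at least 10.9-fold) and INHBA (0.71 ± 0.19) were higher in embryos and none was lower. The part of other cell types in the differences between embryos and donor cells was not tested. The 3′ to 5′ signal ratio of EF1A, which rises as labelled RNA gets shorter, was 23.9 to 30.0 on the trial 1 embryo arrays, 8.20 and 9.34 on those of trial 2, and 4.23 in donor cells, and its part in the results below was not tested.

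In all, 91 solute carrier genes were bright enough to test, and 29 were not. In a linear model over all arrays (limma, with group and trial as terms, adjusted p under 0.05), 63 of the 91 differed between embryos and donor cells, 69.2%, where 72.9% of all 14399 tested probe sets did. Of these, 23 were higher and 40 lower in embryos, where the shares of all probe sets were 36.4% and 36.5%. Taken like the solute carriers, with 1 probe set per gene, 5218 genes with a single symbol were tested. Among them 76.7% differed, 35.3% higher and 41.5% lower. All 5 embryo arrays stood above donor cells for 30 of the 91 genes (40.9% of all probe sets) and below for 41 (39.4%). The median log2 difference, embryos minus donor cells, was -0.57 for solute carriers and -0.02 for all probe sets. It was -0.20 for the 5218 genes with a single symbol. The filter used the mean log2 signal over the 6 arrays, 5 of them embryo arrays. A gene bright only in embryos therefore entered the test more easily than one bright only in donor cells. SLC1A2, SLC2A2, SLC16A3, SLC25A12 and SLC38A10, above the Tag controls only in donor cells, were left out this way. The counts of higher and lower genes describe the tested genes and not all 120.

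This split moved with the scale of the arrays. When the arrays were set to a common 75th percentile, 35 solute carriers were higher and 30 lower, and with quantile normalization 36 and 31, while the median of all probe sets moved to 0.59 and 0.42 and that of the solute carriers to 0.06 and -0.05. Of all 14399 probe sets, 6693 were higher and 3911 lower at a common 75th percentile, and 6235 and 4218 with quantile normalization. Below, a gene is therefore called higher or lower in embryos only where it passed the threshold in the same direction under all 3 scalings. By this rule 23 solute carriers were higher and 29 lower. The same rule called 35.9% of all probe sets higher and 26.4% lower, and no solute carrier was called in opposite directions by 2 scalings. Of the 52 genes so called, 39 were also called without the trial term, without the mean-variance trend and with each embryo array left out in turn, 16 of the 23 higher and 23 of the 29 lower. Fits that left out an injected array also left out the trial term, here and below. Log2 differences are given on the deposited scale. A smaller number of cells and less RNA per cell cannot be told apart in these pooled samples.

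**Figure D1:**
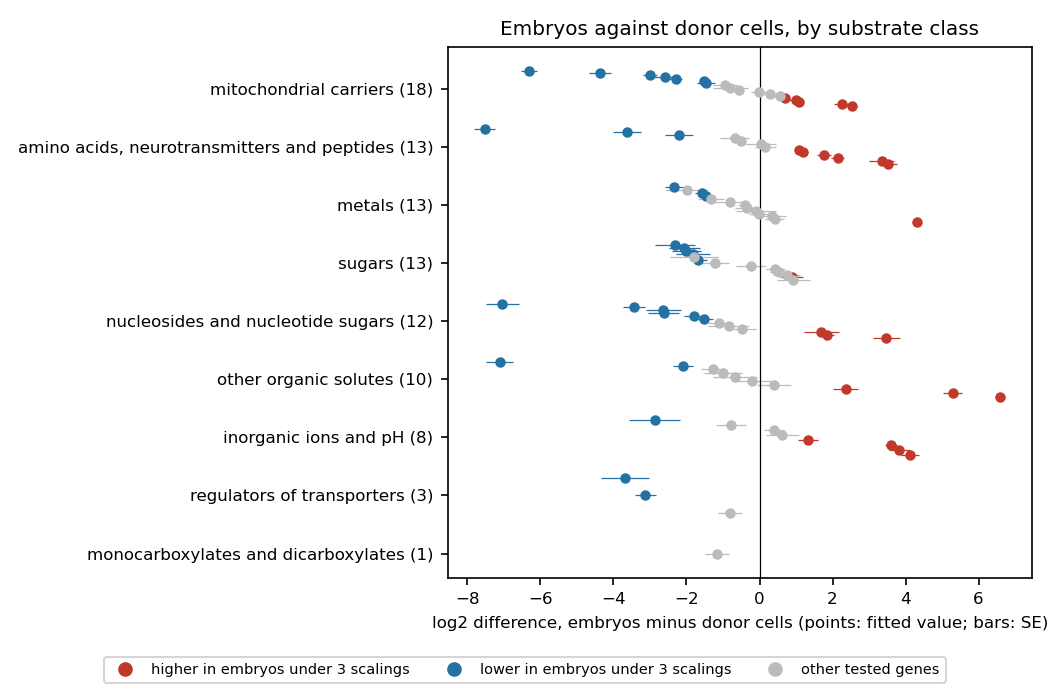
Log2 difference between embryos and donor cells (horizontal axis, fitted value with SE) for the 91 tested solute carrier genes, by substrate class with the number tested in brackets. Red and blue points are the 23 and 29 genes higher or lower in embryos under 3 scalings of the arrays; each class except the regulators and monocarboxylates holds both.

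Amino acid, neurotransmitter and peptide transporters held genes at both ends, with 6 of 13 tested genes higher in embryos and 3 lower, counting SLC3A1 on its brighter probe set. SLC1A1, which carries glutamate and cysteine into cells, gave signals of 107 and 61.9 in anti-DJ1 embryos, 71.6 and 56.7 in IgG embryos, 62.1 in the non-injected embryos and 15157 in the donor cells. Every embryo array was below donor cells, by 183-fold on the fitted scale (log2 difference -7.52 ± 0.29 (SE, adjusted p = 2.27e-10)). The other tested SLC1A1 probe set was also lower in embryos, at -1.60. SLC38A1, a glutamine transporter, gave 84.3 and 56.5 in anti-DJ1 embryos, 57.7 and 56.7 in IgG embryos, 51.9 in the non-injected embryos and 829.8 in the donor cells, all embryo arrays again far below donor cells (-3.62 ± 0.38 (SE)), and its other 2 probe sets were lower too, at -5.72 and -1.38. SLC6A8, the creatine transporter, read 58.1 to 138 in embryos and 481 in donor cells (-2.21 ± 0.38 (SE)).

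The amino acid carriers higher in embryos included transporters of serotonin and of small peptides. SLC6A4, the serotonin transporter, gave 264 and 317 in anti-DJ1 embryos, 409 and 375 in IgG embryos, 323 in the non-injected embryos and 24.6 in the donor cells. Its donor signal lay within the Tag controls, so embryos were at least 9.73-fold higher, the embryo mean being set against the highest Tag control of the donor array. SLC15A1, which takes up dipeptides and tripeptides, gave 139 and 249.8 in anti-DJ1 embryos, 144 and 238 in IgG embryos, 120.5 in the non-injected embryos and 9.07 in the donor cells and was at least 4.97-fold higher by the same bound. The trial 2 arrays of SLC15A1 stood above those of trial 1, and both trials stood above donor cells.

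Some carriers of glutamine, basic amino acids and lysosomal amino acids were brighter in embryos by smaller steps, and others were not. The glutamine transporter SLC38A1, given above, was lower in embryos (-3.62). The basic amino acid transporter SLC7A1, given below, was lower on the deposited scale (-0.51), a call that did not hold under every scaling. SLC1A5, which exchanges glutamine and other neutral amino acids, gave 1723 and 3382 in anti-DJ1 embryos, 2086 and 3798 in IgG embryos, 2650.4 in the non-injected embryos and 928 in the donor cells (1.19 ± 0.14 (SE, adjusted p = 7.27e-06)), with the 5 embryo arrays above donor cells. SLC38A9, a lysosomal carrier through which arginine signals to the growth kinase mTORC1, gave 3158 and 2804 in anti-DJ1 embryos, 3034 and 2786 in IgG embryos, 3138 in the non-injected embryos and 1467 in the donor cells (1.08 ± 0.13 (SE, adjusted p = 1.20e-05)), and its second probe set was higher as well, at 1.46. SLC7A7, which exports basic amino acids, read 726 to 999.9 in embryos and 235 in donor cells (1.76 ± 0.18 (SE)), although its second probe set, at 0.35, was not called. SLC1A5 was not called without the trial term, where its difference was 1.49, and SLC38A9 was called in 2 of the 5 fits that left out an embryo array.

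The probe sets of SLC3A1, the heavy subunit of the cystine and dibasic amino acid transporter, disagreed. On the brighter one the signals were 1197 and 1057 in anti-DJ1 embryos, 1154 and 1198 in IgG embryos, 538 in the non-injected embryos and 203 in the donor cells, higher in embryos by 2.14 ± 0.18 (SE). On the other, embryos read 84.0 to 114 and donor cells 1112, lower in embryos (-3.43, adjusted p = 5.01e-07). No direction is therefore given for SLC3A1 itself.

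The basic amino acid transporter SLC7A1 was bright everywhere, with 3986 and 2823 in anti-DJ1 embryos, 3949 and 3058 in IgG embryos, 3971 in the non-injected embryos and 5649.5 in the donor cells. All embryo arrays were below donor cells (-0.51 ± 0.13 (SE)), but the call was lost when the arrays were set to a common 75th percentile, where the difference was 0.13. SLC3A2, the heavy subunit that carries several family 7 transporters to the membrane, read 67.0 to 147 in embryos and 127 in donor cells (-0.68 ± 0.39 (SE, adjusted p = 0.132)). SLC1A4, which exchanges alanine, serine and cysteine, read 115 to 316 in embryos and 112 in donor cells (0.16 ± 0.28 (SE, adjusted p = 0.621)). Neither gene was called on the deposited scale, while SLC1A4 was higher under the other 2 scalings, at 0.77 (adjusted p = 0.0262) and 0.84 (adjusted p = 0.0164). Of the genes too dim to test, SLC38A10 was within the Tag controls on all embryo arrays (8.16 to 38.3) and at least 5.41-fold higher in donor cells (195), and the glial glutamate transporter SLC1A2 was at least 2.39-fold higher there (86.2 against 2.76 to 30.1).

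**Figure D2:**
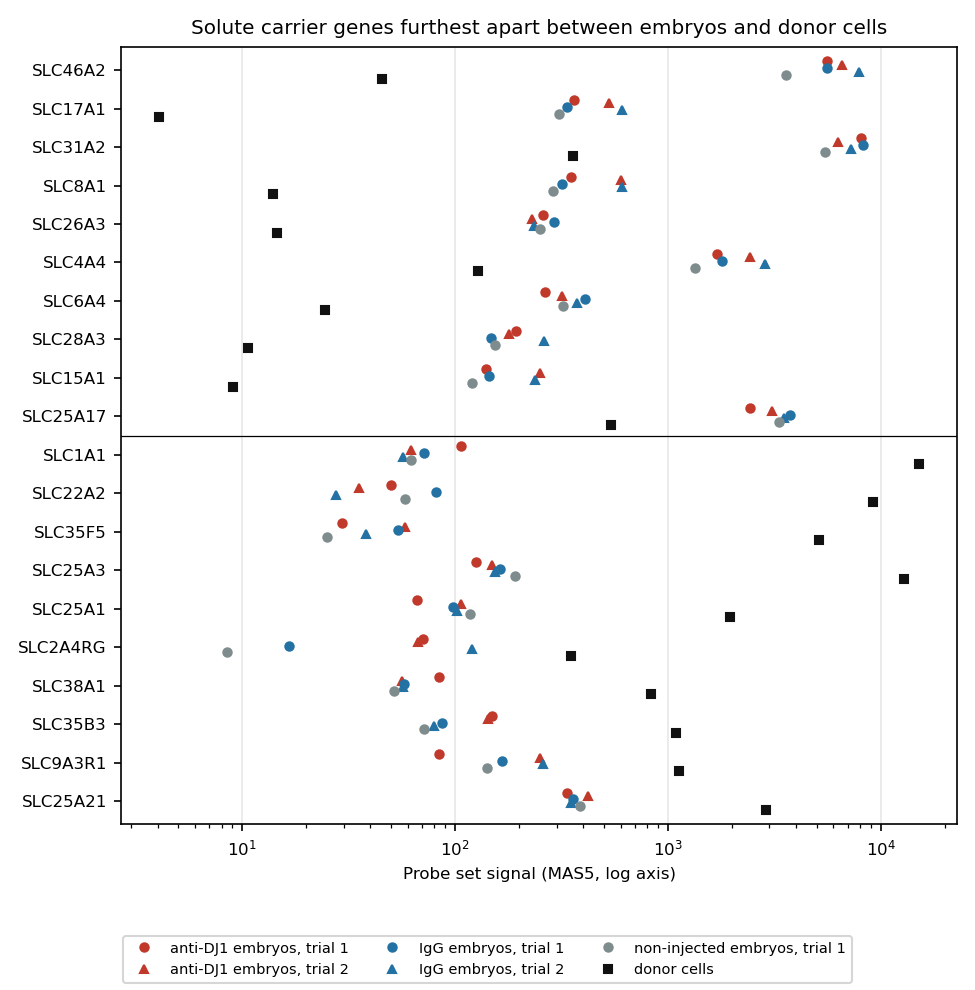
Deposited signals (horizontal log axis) on each of the 6 arrays for the 10 solute carrier genes with the largest called difference in each direction, embryos above donor cells over the line and below donor cells under it. For each gene the donor cell square stands clear of the 5 embryo points. The genes were picked by fitted difference, and for 6 of the 10 higher ones the donor signal, and for 3 of the 10 lower ones some embryo signals, lay within the Tag controls, so the size of those differences is not exact.

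Of 13 tested sugar transporters, 5 were lower in embryos under all 3 scalings and 1 was higher, while each of the other 2 scalings alone called 5 higher and 5 lower. SLC2A1, the basal glucose transporter GLUT1, gave 191 and 393 in anti-DJ1 embryos, 218 and 421 in IgG embryos, 191 in the non-injected embryos and 646 in the donor cells, so that the trial 2 embryos lay between those of trial 1 and donor cells (-1.67 ± 0.22 (SE, adjusted p = 2.38e-05)). SLC2A3, the high-affinity neuronal glucose transporter, gave 55.0 and 40.6 in anti-DJ1 embryos, 18.1 and 30.9 in IgG embryos, 82.8 in the non-injected embryos and 240.3 in the donor cells, with 2 of the 5 embryo signals within the Tag controls. With these set at the highest Tag control of their array, embryos were at least 5.36-fold lower. SLC2A8, an intracellular glucose transporter described in blastocysts, was the 1 sugar transporter higher in embryos, with 188 and 204 in anti-DJ1 embryos, 169.5 and 284 in IgG embryos, 187 in the non-injected embryos and 95.7 in the donor cells (0.89 ± 0.29 (SE, adjusted p = 0.0159)), a call that was lost without the mean-variance trend.

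Fructose and vitamin carriers of these families were among the lower genes. The fructose transporter SLC2A5 read 36.1 to 91.5 in embryos and 268 in donor cells (-2.06 ± 0.43 (SE)). SLC5A4, of the sodium glucose cotransporter family, read 40.6 to 108 in embryos and 265 in donor cells (-2.01 ± 0.39 (SE)). SLC5A6, placed here by its family number although it carries biotin and pantothenate, read 32.1 to 110.5 in embryos and 149 in donor cells (-1.82 ± 0.45 (SE)). As 1 of its embryo signals lay within the Tag controls, embryos were at least 2.55-fold lower by the bound used for SLC2A3. The liver-type glucose transporter SLC2A2 was too dim to test, with 5.42 to 18.6 in embryos, all within the Tag controls, against 461 in donor cells, at least 12.8-fold higher there. Of the 6 called sugar transporters, only SLC2A3 and SLC2A5 were called without the trial term, and the number of sugar transporters called on the deposited scale fell from 8 to 2 in that fit. The class median was -1.22 on the deposited scale, -1.25 without the trial term, and between -1.29 and -0.82 with 1 injected array left out. Those last fits also dropped the trial term, so the part of the array and that of the term cannot be told apart.

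SLC37A4, which carries glucose 6-phosphate into the endoplasmic reticulum, and SLC45A3 were called higher on their brighter probe sets under 2 of the 3 scalings, and not on the deposited scale. SLC37A4 read 264 to 493 in embryos and 206 in donor cells (0.53 ± 0.24 (SE), and 1.15 and 1.25 at a common 75th percentile and with quantile normalization), while its second probe set was lower in embryos, at -1.76. SLC45A3 read 186 to 344 in embryos and 146 in donor cells (0.44 ± 0.25 (SE), and 1.05 and 1.17), while its second probe set was higher, at 1.78. Of the monocarboxylate family, the lactate exporter SLC16A3 was within the Tag controls in all embryos (1.46 to 13.6) and stood at 133 in donor cells, at least 3.68-fold higher. SLC16A13, an orphan of the same family, read 83.7 to 200.1 in embryos and 225 in donor cells (-1.17 ± 0.32 (SE)), a difference not called under the other scalings.

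Mitochondrial carriers showed 7 lower and 5 higher genes of 18 tested. SLC25A3, the phosphate carrier that supplies ATP synthase, gave 125 and 149 in anti-DJ1 embryos, 163 and 154 in IgG embryos, 192 in the non-injected embryos and 12895 in the donor cells. The donor signal was 79.4 times the embryo level on the fitted scale (-6.31 ± 0.23 (SE, adjusted p = 1.29e-10)). SLC25A1, which exports citrate for fatty acid synthesis, gave 66.2 and 106 in anti-DJ1 embryos, 97.4 and 102 in IgG embryos, 117 in the non-injected embryos and 1961 in the donor cells (-4.36 ± 0.30 (SE)). The embryo arrays of both genes formed a narrow group that did not come near donor cells. SLC25A21, a carrier of 2-oxodicarboxylates, read 335 to 424 in embryos and 2893 in donor cells (-2.995 ± 0.20 (SE)), the ATP-Mg and phosphate carrier SLC25A24 585 to 905 in embryos and 3659.7 in donor cells (-2.30 ± 0.19 (SE)), and the iron importer SLC25A37 44.9 to 99.1 in embryos and 410.3 in donor cells (-2.60 ± 0.42 (SE)). For SLC25A37, 1 embryo signal lay within the Tag controls, and embryos were at least 6.33-fold lower by the bound used for SLC2A3. SLC25A12, an aspartate and glutamate carrier, was too dim to test: its embryo signals were 8.26 to 17.8, within the Tag controls, and 665 in donor cells, at least 18.5-fold higher.

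Of the 3 measured ADP/ATP carriers, SLC25A5 and SLC25A6 were higher in trial 2 than in trial 1 under all 3 scalings, and SLC25A4 on the deposited scale alone. SLC25A6 gave 628 and 3104 in anti-DJ1 embryos, 629 and 3154 in IgG embryos, 1176 in the non-injected embryos and 2212 in the donor cells, so the trial 1 embryos were below donor cells and the trial 2 embryos above them. Its fitted difference of -1.51 ± 0.15 rests on the trial term, since the donor cell array was counted in trial 1 by its replicate number. The difference was -0.74 and not called without that term. SLC25A5 gave 3078 and 6963 in anti-DJ1 embryos, 3679 and 7187 in IgG embryos, 3073 in the non-injected embryos and 4855 in the donor cells, with the same crossing, and SLC25A4 gave 202 and 277 in anti-DJ1 embryos, 187 and 327 in IgG embryos, 170 in the non-injected embryos and 525 in the donor cells, below donor cells throughout. SLC25A4 was lower, at -1.47 ± 0.24 (SE), but was not called without the trial term, and SLC25A5 was not called when the arrays were set to a common 75th percentile.

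Among the carriers higher in embryos were those of coenzymes and pyrimidine nucleotides. SLC25A17, a peroxisomal member of the family that carries coenzyme A and related nucleotides, gave 2427 and 3072 in anti-DJ1 embryos, 3769 and 3499 in IgG embryos, 3349 in the non-injected embryos and 541 in the donor cells (2.52 ± 0.16 (SE, adjusted p = 1.84e-08)). SLC25A36 and SLC25A33 carry pyrimidine nucleotides into mitochondria. SLC25A36 gave 632 and 567 in anti-DJ1 embryos, 551 and 497 in IgG embryos, 261 in the non-injected embryos and 91.0 in the donor cells (2.25 ± 0.21 (SE, adjusted p = 9.46e-07)), and SLC25A33 read 1949 to 3269 in embryos and 1028 in donor cells (1.07 ± 0.14 (SE)). The carnitine and acylcarnitine carrier SLC25A20 read 579 to 1104 in embryos and 337 in donor cells (0.99 ± 0.18 (SE)), and SLC25A30 2612 to 2693 in embryos and 1628 in donor cells (0.69 ± 0.14 (SE)). SLC25A20 and SLC25A30 were not called without the trial term, and SLC25A33 was called in 4 of the 5 fits that left out an embryo array. The number of mitochondrial carriers called on the deposited scale fell from 14 to 8 without the trial term. The class median moved from -0.68 to -0.32 in that fit, and to between -0.51 and -0.14 with 1 injected array left out. Those last fits also dropped the trial term, so the part of the array and that of the term cannot be told apart.

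Among inorganic ion carriers 4 of 8 tested genes were higher in embryos and 1 was lower. SLC8A1, the sodium-calcium exchanger, gave 352 and 602 in anti-DJ1 embryos, 319.7 and 609 in IgG embryos, 288 in the non-injected embryos and 13.9 in the donor cells. The donor signal lay within the Tag controls, and embryos were at least 12.01-fold higher. SLC26A3, a chloride and bicarbonate exchanger of the intestine, gave 259 and 230.2 in anti-DJ1 embryos, 292 and 236 in IgG embryos, 252 in the non-injected embryos and 14.6 in the donor cells and was at least 7.38-fold higher. SLC4A4, the electrogenic sodium bicarbonate cotransporter, gave 1700.2 and 2431 in anti-DJ1 embryos, 1807 and 2865 in IgG embryos, 1338 in the non-injected embryos and 128 in the donor cells, with donor cells above the Tag controls, and was 12.1-fold higher on the fitted scale (3.596 ± 0.16 (SE, adjusted p = 7.54e-10)). SLC8A1 and SLC4A4 were brighter on the trial 2 arrays and SLC26A3 was not, and all 3 stood above donor cells on each embryo array.

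The anion exchanger SLC26A6 read 204 to 821 in embryos and 106 in donor cells (1.33 ± 0.28 (SE)), higher in embryos but not called without the trial term. Its relative SLC26A11 read 143 to 544 in embryos and 149 in donor cells (0.40 ± 0.27 (SE, adjusted p = 0.196)), and was called higher only under the other scalings, at 1.01 and 1.14 (adjusted p = 0.0029 and 0.00146). SLC12A4, the potassium chloride cotransporter KCC1, was lower in embryos, with 12.1 and 59.7 in anti-DJ1 embryos, 50.3 and 40.1 in IgG embryos, 18.8 in the non-injected embryos and 198 in the donor cells. As 3 of its 5 embryo signals were within the Tag controls, only a bound is given, at least 4.27-fold lower, and the gene entered the test through its donor signal.

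Among the 13 metal transporters, a copper transporter was higher in embryos and 3 zinc transporters were lower under all 3 scalings. A common 75th percentile alone called 3 higher and 4 lower, and quantile normalization 4 and 3. SLC31A2, a copper transporter of endosomes, gave 8113 and 6339 in anti-DJ1 embryos, 8241 and 7245 in IgG embryos, 5452 in the non-injected embryos and 358 in the donor cells, 19.7-fold higher in embryos on the fitted scale (4.30 ± 0.13 (SE, adjusted p = 2.64e-11)), and its second probe set was higher by 4.57. SLC31A1, the copper importer of the plasma membrane, did not pass the threshold, at 640.5 to 1195 in embryos and 1013 in donor cells (-0.41 ± 0.18 (SE, adjusted p = 0.0591)). The zinc transporters SLC39A7 and SLC39A1, which release zinc into the cytosol, read 151 to 328 in embryos and 849.5 in donor cells (-2.34 ± 0.24 (SE)) and 392.3 to 832 in embryos and 1398 in donor cells (-1.58 ± 0.18 (SE)), both lower in embryos. SLC39A1 was not called without the trial term, and its second probe set was lower too, at -1.19.

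SLC30A5, which loads zinc into the secretory pathway, read 351 to 502 in embryos and 1272 in donor cells (-1.48 ± 0.21 (SE)), while its second tested probe set, at -0.20, was not called. SLC39A14, which takes up zinc, manganese and iron, read 53.2 to 148 in embryos and 178 in donor cells (-1.33 ± 0.37 (SE)) and was not called under the other scalings. The iron transporter SLC11A2 read 49.9 to 107 in embryos and 123 in donor cells (-0.80 ± 0.44 (SE, adjusted p = 0.122)) and was not called. Family 39 also held genes called higher only under the other 2 scalings, SLC39A5 (0.42 on the deposited scale, then 1.05 and 1.15) and SLC39A2 (0.34, then 0.95 and 0.97). SLC30A3 was called higher with quantile normalization alone, at 0.72.

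Nucleoside and nucleotide sugar transporters had 3 of 12 tested genes higher and 6 lower in embryos, and all 9 were called without the trial term and with each embryo array left out. The higher genes included both concentrative nucleoside transporters measured. SLC28A3, which takes up purine and pyrimidine nucleosides with sodium, gave 194 and 179 in anti-DJ1 embryos, 148 and 262 in IgG embryos, 155 in the non-injected embryos and 10.6 in the donor cells, at least 5.35-fold higher in embryos. SLC28A1, which prefers pyrimidine nucleosides, gave 79.4 and 95.4 in anti-DJ1 embryos, 52.7 and 85.4 in IgG embryos, 72.6 in the non-injected embryos and 17.6 in the donor cells, at least 2.20-fold higher. The equilibrative nucleoside transporter SLC29A1 was within the Tag controls on all 6 arrays (4.61 to 34.7 in embryos and 18.4 in donor cells).

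Carriers of the sulphate donor PAPS into the Golgi went in opposite directions. SLC35B2 gave 458 and 1479 in anti-DJ1 embryos, 482 and 1320.3 in IgG embryos, 449 in the non-injected embryos and 125 in the donor cells (1.85 ± 0.19 (SE, adjusted p = 2.43e-06)), higher in embryos, and SLC35B3 gave 149 and 143 in anti-DJ1 embryos, 86.8 and 79.9 in IgG embryos, 71.4 in the non-injected embryos and 1095 in the donor cells (-3.43 ± 0.30 (SE, adjusted p = 4.14e-07)), lower in embryos. SLC35A3, a carrier of UDP-N-acetylglucosamine, read 136 to 316 in embryos and 659 in donor cells (-1.53 ± 0.25 (SE)), SLC35B1, which exchanges ATP and ADP across the endoplasmic reticulum, 106 to 198 in embryos and 659.6 in donor cells (-1.79 ± 0.27 (SE)), SLC35D2 28.8 to 102 in embryos and 428 in donor cells (-2.63 ± 0.43 (SE)) and SLC35F6 31.1 to 61.9 in embryos and 306 in donor cells (-2.64 ± 0.48 (SE)). SLC35D2 and SLC35F6 each had 1 embryo signal within the Tag controls. By the bound used for SLC2A3, embryos were at least 7.68-fold and 6.19-fold lower.

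SLC35F5, an orphan of the same family, gave 29.3 and 58.4 in anti-DJ1 embryos, 53.9 and 38.3 in IgG embryos, 25.1 in the non-injected embryos and 5117 in the donor cells, with 3 of the 5 embryo signals within the Tag controls. Embryos were at least 109-fold lower by the bound used for SLC2A3, and the gene entered the test through its donor signal. A second probe set was also lower, at -2.86, but the remaining probe set read 0.87 and was not called.

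Carriers of other organic solutes held large differences in both directions. SLC46A2, a relative of the proton-coupled folate transporter first described in thymic stroma, gave 5575 and 6611 in anti-DJ1 embryos, 5593 and 7893 in IgG embryos, 3605 in the non-injected embryos and 45.5 in the donor cells, 96.5-fold higher in embryos on the fitted scale (6.59 ± 0.14 (SE, adjusted p = 1.63e-12)). SLC17A1, a urate and phosphate transporter of the kidney, gave 362 and 529 in anti-DJ1 embryos, 336 and 607 in IgG embryos, 308 in the non-injected embryos and 4.08 in the donor cells, at least 12.05-fold higher, since its donor signal lay within the Tag controls. The fatty acid transport protein SLC27A6 read 104 to 284 in embryos and 19.2 in donor cells, at least 4.70-fold higher. SLC22A2, the organic cation transporter OCT2, gave 49.9 and 35.4 in anti-DJ1 embryos, 81.0 and 27.5 in IgG embryos, 58.3 in the non-injected embryos and 9199.8 in the donor cells and was 139-fold lower in embryos on the fitted scale (-7.11 ± 0.37 (SE, adjusted p = 3.88e-09)), with 2 embryo signals, both of trial 2, within the Tag controls. SLC33A1, which moves acetyl-CoA into the endoplasmic reticulum, read 127 to 200.1 in embryos and 655 in donor cells (-2.09 ± 0.27 (SE)), and its other 2 tested probe sets were lower by the same test, at -2.51 and -4.10. The riboflavin transporter SLC52A2 read 61.2 to 136 in embryos and 235 in donor cells (-1.26 ± 0.35 (SE)) and was not called under the other scalings. In all, 3 of 10 tested genes were higher and 2 lower.

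The 3 regulators were SLC9A3R1 and SLC9A3R2, scaffold proteins that anchor membrane transporters, and SLC2A4RG, a transcription factor of the GLUT4 gene. SLC9A3R1 gave 83.9 and 252 in anti-DJ1 embryos, 167 and 258 in IgG embryos, 141 in the non-injected embryos and 1129 in the donor cells (-3.12 ± 0.29 (SE, adjusted p = 9.20e-07)), lower in every embryo array. SLC2A4RG gave 71.0 and 67.1 in anti-DJ1 embryos, 16.5 and 121 in IgG embryos, 8.44 in the non-injected embryos and 349 in the donor cells, also lower, by at least 6.18-fold on the same bound, with the IgG array of trial 1 and the non-injected array within the Tag controls and the other embryo arrays above them. SLC9A3R2 read 78.5 to 142 in embryos and 187 in donor cells (-0.81 ± 0.33 (SE)) and was not called under the other scalings.

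The remaining 39 tested genes carried no call that held under all 3 scalings. Their log2 differences ran from -2.00 (the magnesium transporter SLC41A1, 25.5 to 61.6 in embryos and 156 in donor cells) to 0.93 (the insulin-responsive glucose transporter SLC2A4, 52.7 to 134 in embryos and 31.4 in donor cells), and 31 of them lay within 2-fold. Of the 39, 12 were called higher under both other scalings and not on the deposited scale, SLC2A4 among them, 1 higher with quantile normalization alone, 11 lower on the deposited scale but not under all 3, and 15 under none. The 29 genes too dim to test were 8 amino acid, 8 other organic solute, 4 sugar, 4 inorganic ion and 3 mitochondrial carriers, SLC16A3 and SLC29A1. Within the Tag controls on all 6 arrays were SLC1A6, SLC4A2, SLC5A5, SLC7A9, SLC9A4, SLC10A1, SLC22A8, SLC23A1, SLC29A1 and SLC44A4. Some well-known embryo transporters, among them SLC6A9, SLC7A5, SLC7A11, SLC16A1 and SLC38A2, had no probe set under the rule and were not analysed here.

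Several of the called genes had more than 1 tested probe set. Among 10 such genes with 13 further probe sets, 9 of these were called in the same direction on the deposited scale, 3 were not called, and 1, that of SLC3A1, was called in the opposite direction. The other 42 called genes rest on a single tested probe set.

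Transport genes outside the SLC symbols also differed in both directions. Of 31 measured genes of a list of 49, 24 were tested, and 6 were higher and 10 lower in embryos under all 3 scalings (35.9% and 26.4% of all probe sets). The deposited scale alone called 7 higher and 12 lower, a common 75th percentile 12 and 10, and quantile normalization 10 and 13. The sodium pump subunits ATP1B1 and ATP1B3 were lower, at -3.604 ± 0.15 and -2.87 ± 0.17 (SE), as was BSG (-3.24 ± 0.30), the partner protein of the lactate transporters. With trial 1 first, BSG read 50.7 and 284 after the antibody and 25.4 and 217 after IgG. It read 320 without injection, against a donor signal of 763. Its trial 2 minus trial 1 difference was 2.64 ± 0.26, so the size of its fitted difference depends on the trial term, as for SLC25A6. MPC1, a subunit of the mitochondrial pyruvate carrier, and VDAC3, a channel of the outer mitochondrial membrane, were lower, at -1.85 ± 0.16 and -2.72 ± 0.17. VDAC2, a relative of VDAC3, was higher (0.45 ± 0.16), as was PDZK1 (3.14 ± 0.15), a scaffold of kidney transporters. RRAGA (1.57 ± 0.12), a GTPase through which lysosomal amino acids act on mTORC1, and RRAGC (0.70 ± 0.12) were higher. LAMTOR2, of the same pathway, was lower (-3.80 ± 0.55). Only 3 of its 5 embryo signals were above the Tag controls, and it entered the test through its donor signal. The proton pump subunit ATP6V1B2 was higher (1.11 ± 0.12), while ATP6V1A (-1.34 ± 0.24) and ATP6V0C (-1.07 ± 0.12) were lower.

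The study's own question is what the antibody against DJ-1 changes, and here no solute carrier was called. Of the 91 tested genes 0 passed the threshold in limma (0% of all probe sets did), 7 had an unadjusted p under 0.05 (5.82% of all probe sets), and the lowest adjusted p was 0.816. The median log2 difference, anti-DJ1 minus IgG, was -0.06, with -0.04 in trial 1 and -0.03 in trial 2. The same sign in both trials was seen for 48 of 91 genes, 52.7%, where 51.3% of all probe sets had it. The difference was at least 2-fold for 11 genes in trial 1 (6.92% of all probe sets) and for 0 in trial 2 (3.41%), so no solute carrier was 2-fold apart the same way in both (0.375% of all probe sets).

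**Figure D3:**
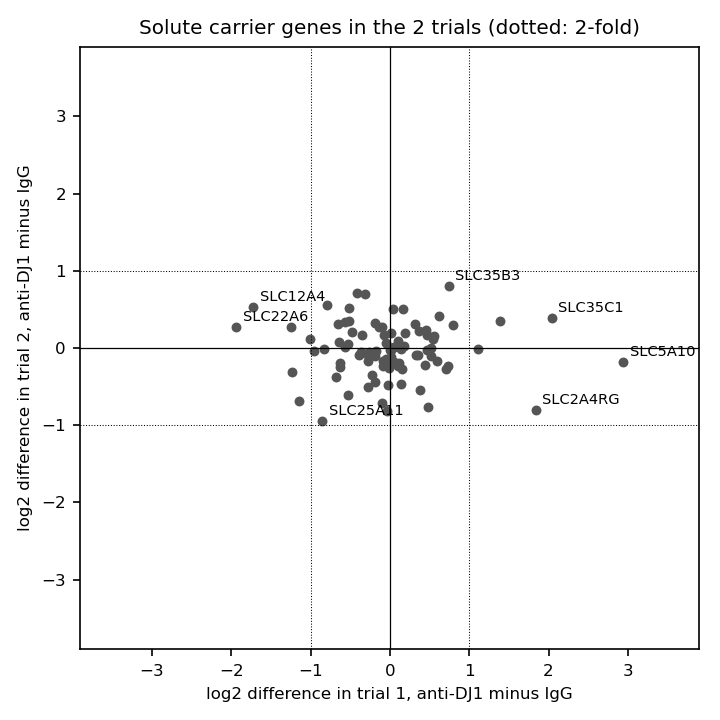
Log2 difference between the anti-DJ1 and IgG array of trial 1 (horizontal axis) and of trial 2 (vertical axis) for the 91 tested solute carrier genes, with dotted lines at 2-fold. Points scatter more widely in trial 1, where 11 genes passed 2-fold, and 0 did in trial 2; the named points were chosen after their values were seen.

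The 7 genes with an unadjusted p under 0.05 were singled out by this contrast, so a like sign in both trials is no support for them and their values are a description. SLC35B3 read 149 against 86.8 in trial 1 and 143 against 79.9 in trial 2, higher with the antibody in both (0.78 ± 0.26 (SE, adjusted p = 0.816)), and SLC35A3 read 316 against 204 in trial 1 and 182 against 136 in trial 2, also higher in both (0.51 ± 0.21 (SE, adjusted p = 0.853)). Lower in both trials were the oxoglutarate carrier SLC25A11, at 32.5 against 62.3 in trial 1 and 71.8 against 143 in trial 2 (-0.90 ± 0.41), SLC25A17, at 2427 against 3769 in trial 1 and 3072 against 3499 in trial 2 (-0.41 ± 0.14), and SLC35D2, at 43.6 against 102 in trial 1 and 28.8 against 48.98 in trial 2 (-0.91 ± 0.38).

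The other 2 rest on a dim signal in the IgG array of trial 1. SLC5A10 read 139 against 14.1 in trial 1 and 125 against 143 in trial 2, and the GDP-fucose carrier SLC35C1 58.8 against 10.8 in trial 1 and 83.3 against 62.6 in trial 2. In both genes the trial 1 IgG signal lay within the Tag controls of that array.

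The precision of this comparison differs by gene. The 95% confidence interval of a tested solute carrier reached from 1.18-fold to 2.52-fold to either side, with a median of 1.48-fold, and for 61 of the 91 genes it stayed inside 2-fold in both directions. For the bright amino acid transporters SLC1A5 and SLC7A1 the log2 differences were -0.22 ± 0.12 and -0.05 ± 0.11, with intervals of -0.49 to 0.04 and -0.29 to 0.19. For the glucose transporter SLC2A1 it was -0.14 ± 0.19 (-0.57 to 0.28). SLC46A2 and SLC31A2 differed by -0.13 ± 0.12 (-0.40 to 0.14) and -0.11 ± 0.11 (-0.35 to 0.13).

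Against the single non-injected array, which both comparisons share, few solute carriers were called. IgG embryos differed in 2 of 91 genes (1.26% of all probe sets), 1 higher and 1 lower (0.917% and 0.347%). Anti-DJ1 embryos differed in 3 (1.92%), 2 higher and 1 lower (1.26% and 0.653%). SLC3A1 on its brighter probe set was higher in both, with signals of 1197 and 1057 in anti-DJ1 embryos, 1154 and 1198 in IgG embryos and 538 in non-injected embryos. Its log2 difference was 1.15 ± 0.20 (SE, adjusted p = 0.0292) for IgG and 1.09 ± 0.20 (SE, adjusted p = 0.0261) for anti-DJ1 embryos, and the 4 injected arrays lay close together above the non-injected one. On the dimmer probe set the differences were 0.26 and 0.41 and were not called.

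SLC25A36 gave 632 and 567 in anti-DJ1 embryos, 551 and 497 in IgG embryos and 261 in non-injected embryos. It was higher in anti-DJ1 embryos by 1.26 ± 0.24 (SE, adjusted p = 0.0282), and the difference for IgG embryos, 1.07 ± 0.24 (SE, adjusted p = 0.0591), did not pass the threshold. The difference between the injected groups themselves was 0.19 ± 0.18 (SE, adjusted p = 0.946). SLC25A6 was lower, at -0.89 ± 0.17 (SE, adjusted p = 0.0338) and -0.90 ± 0.17 (SE, adjusted p = 0.0279), but only in trial 1 did injected embryos lie below the non-injected array, as the values above show. Without the trial term its differences turned to 0.26 and 0.25, and with the trial 1 array of the group left out to 1.42 and 1.40. None of these calls was kept when the trial term was dropped or 1 injected array was left out.

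**Figure D4:**
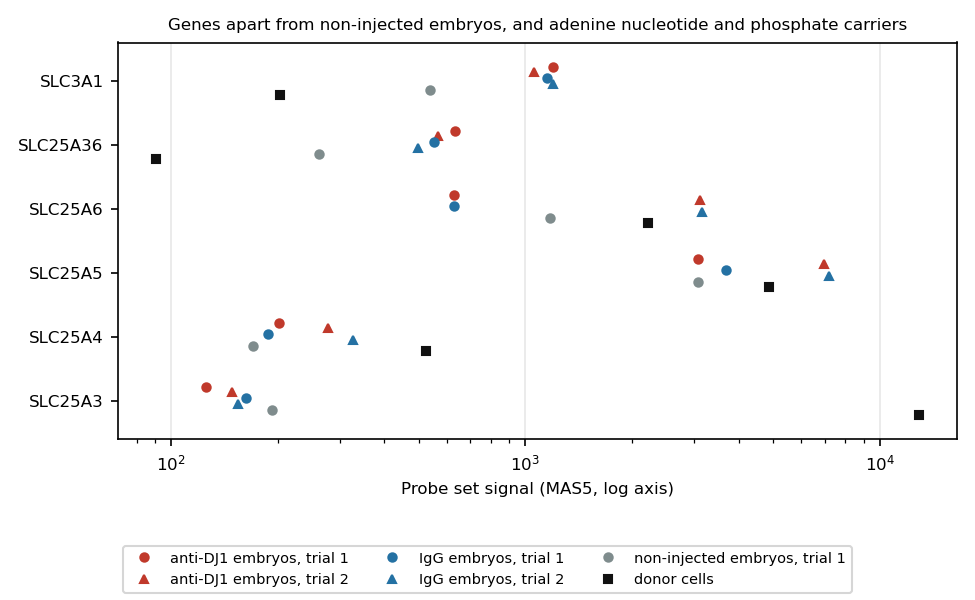
Deposited signals (horizontal log axis) on each of the 6 arrays for SLC3A1 and SLC25A36, the ADP/ATP carriers SLC25A6, SLC25A5 and SLC25A4, and the phosphate carrier SLC25A3. SLC25A6 separates by trial, from 628 and 629 in trial 1 to 3104 and 3154 in trial 2, while the SLC3A1 and SLC25A36 non-injected circles stand below the 4 injected points.

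More solute carriers were called between the trials than between the injected groups. With the group as a term, 29 of 91 solute carriers were called (32.3% of all probe sets), 26 higher and 3 lower in trial 2 (18.9% and 13.4%). With 1 probe set for each of the 5218 tested genes with a single symbol, 38.5% were called, 26.4% higher and 12.15% lower. The median log2 difference, trial 2 minus trial 1, was 0.42 for solute carriers and 0.25 for those 5218 genes. Under all 3 scalings 14 were higher and 3 lower, where 10.9% and 11.1% of all probe sets were. Without the mean-variance trend 0 of 91 were called, and 0 of all tested probe sets, so that fit does not set solute carriers apart. In it 34 of the 91 had an unadjusted p under 0.05, and the share of all probe sets was not taken. The EF1A ratio above moved with the trial, and its part was not tested.

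SLC25A6 was the solute carrier furthest apart between the trials, with 2.31 ± 0.13 (SE, adjusted p = 3.92e-06). SLC35B2 (1.56 ± 0.17), the anion transporters SLC26A11 (1.55 ± 0.23) and SLC26A6 (1.46 ± 0.25) and the amino acid exchangers SLC1A4 (1.22 ± 0.24) and SLC1A5 (0.92 ± 0.12) were higher in trial 2 under the 3 scalings, as were SLC25A5 (1.07 ± 0.11) and SLC2A1 (0.98 ± 0.19). Lower in trial 2 were SLC22A2, whose 2 signals there lay within the Tag controls, SLC35A3 (-0.68 ± 0.21) and SLC7A1 (-0.43 ± 0.11). For each of SLC25A6, SLC35B2, SLC1A4 and SLC2A1 the 2 embryo arrays of trial 2 lay above the 3 of trial 1.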

How the data were processed

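The files deposited hold 1 linear intensity per probe set and array, made with MAS5 per the submitters' processing notes. No version, scaling target or detection call was given with them. The deposited values of the 6 arrays shared a trimmed mean of 500.1 to 500.2 (lowest and highest 2% left out). Of 24123 probe sets, 124 controls were left out of the tests. Values were set to log2(signal + 4.57), the 10th percentile of all signals, which understates differences of dim genes, and the upper 60% by mean (14399, mean signal above 39.6) were tested with limma 3.58.1 in R 4.3.3: lmFit and trended eBayes, group and trial as terms, two-sided, Benjamini-Hochberg adjustment over all tested probe sets, threshold 0.05, with 1 residual degree of freedom and 10.7 added by moderation. "Embryos" is the mean of the 3 embryo groups. The fit was tested on simulated data.

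Trial was kept as a block because the labels name the IgG array of each trial as its control; deviations of same-trial arrays correlated at r = 0.588 across probe sets. The single non-injected and donor arrays were assumed to vary like the replicated ones, and the small number of arrays limits precision. The design text calls the trials biologically different samples. Signals of different probe sets were not compared. Gene symbols come from the platform annotation, which can be old; 174 of the 176 probe sets matched RefSeq by gene ID with the same symbol. A bound sets the mean of the brighter group against the higher of the dim group's own signal and its arrays' highest Tag control, on the deposited scale.

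The members, lists and tests were chosen with earlier results of these data known. The rule for named genes took, each way, the 10 largest called differences with every embryo array on the same side, the 3 genes of each class with the highest embryo and donor signal, and a list of well-known carriers. Other scalings, filters, pseudocounts, probe sets, fits without the block or trend, and fits with 1 array left out were tried.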

Additional observations from a re-analysis of the deposited data

How the results depend on the processing

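Between embryos and donor cells, the count of called solute carriers stayed within 1.5 times of 63 under every alternative tried, from 43 (18 higher, 25 lower) with no replicate block to 69 with no filter. The share of all probe sets called, given above for the other 2 scalings, was not taken under the remaining alternatives. The SLC median moved from -0.57 to 0.063 at a common 75th percentile, -0.049 with quantile normalization and 0.075 for the upper 40% of probe sets. It was -0.54 to -0.25 with 1 embryo array left out, the smallest values without the IgG (-0.25) or anti-DJ1 (-0.32) array of trial 1. The 20 genes with the largest differences were called in the same direction under each alternative that tested them, except SLC35F5 on its dimmest probe set (0.87). For anti-DJ1 against IgG embryos 0 genes were called under every alternative (limma, 0 to 8 with an unadjusted p under 0.05). The median there, -0.06, was -0.045 with no filter, -0.055 with a pseudocount at the 25th percentile and -0.032 on the dimmest tested probe sets, and ran from -0.28 to 0.16 with 1 array left out: -0.28 and 0.13 without the IgG array of trial 1 or 2, and 0.16 and -0.27 without the anti-DJ1 array of trial 1 or 2.

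Calls against the non-injected array depended on most settings. The share of all probe sets called was taken in the main fit alone, so the other counts have none to be set against. IgG embryos had 2 called genes, against 6 at a common 75th percentile, 6 with the larger pseudocount, 5 for the upper 40%, 4 with quantile normalization, 1 with no filter, 1 on the dimmest probe sets, 0 with no trend and 0 with no replicate block (9 and 5 with an unadjusted p under 0.05). Anti-DJ1 embryos had 3, against 5, 5 and 6 under the first 3 of these, 0 with no trend and 0 with no replicate block (10 and 5 with an unadjusted p under 0.05). Without either array of either injected group both counts were 0. SLC25A6 turned from -0.89 and -0.90 to 0.26 and 0.25 with no replicate block, and ran from -0.90 to 1.42 and from -0.90 to 1.40 with 1 array left out. No solute carrier was called between anti-DJ1 and IgG embryos with or without the block, so there was no call to lose. Fits that left out an injected array were run without the block, which leaves no residual degree of freedom. The cause of these changes was not tested. The fit without the non-injected array was added after seeing the data.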
